A study of Mus musculus with 4 samples.

Results

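The proteasome subunit genes described here are the mouse genes whose symbols run from Psma, Psmb, Psmc or Psmd to a number, without the 3 immunoproteasome genes Psmb8, Psmb9 and Psmb10. The rule found 36 of the 29811 genes with a value. Of these, 16 encode the core particle (8 Psma and 8 Psmb genes) and 20 carry regulatory particle symbols (6 Psmc and 14 Psmd genes). Messenger RNA was sequenced from sorted tumour cells, called SCC-SCs in the labels, of primary squamous cell carcinomas (SCC) of mouse skin, in mCherry Pos and mCherry Neg fractions, with 1 library of each in Exp1 and 1 in Exp2 (n = 2 per fraction, 4 libraries). The labels describe mCherry Pos as the fraction with signalling by transforming growth factor beta (TGF-beta) and mCherry Neg as the one without. Tumours of both fractions came from skin epidermis on the C57BL/6 X FBV background, with TetO-Hras and the LV-rtTA3-TGF-beta reporter as genotype. An Hras transgene was thus shared by all 4 libraries, and the libraries are also all from cells that were lineage negative and carried the surface proteins integrin alpha6 and CD44. Age, the number of animals per library and whether animals were pooled are not given in the labels, and the mCherry transcript itself was not analysed here. Each gene was compared between the fractions, and core genes were set beside regulatory ones.

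The proteasome degrades proteins tagged with ubiquitin. Its core particle is a barrel of stacked rings: the alpha subunits (Psma) form the outer rings and the gate, and the beta subunits (Psmb) form the inner rings, of which Psmb5, Psmb6 and Psmb7 hold the proteolytic sites. The regulatory particle caps the barrel. Its base contains the ATPases (Psmc), which unfold substrates, and its lid holds the deubiquitinase Psmd14. Psmd5, Psmd9 and Psmd10 help to assemble the base and leave the finished particle. In cells exposed to interferon-gamma, Psmb8, Psmb9 and Psmb10 take the places of Psmb5, Psmb6 and Psmb7, while NFE2L1 is the transcription factor known to raise constitutive subunit genes when proteasome activity is short.

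Promoters of 2 constitutive catalytic genes and of the immunoproteasome genes that replace them are shown because the members of each pair had unlike values, given with the beta subunits below. The remaining pair, Psmb7 and Psmb10, also had unlike values and is not shown. No match to the motifs searched was listed for either of its genes. The sequences are RefSeq's, on GRCm38.p6, and each holds the 250 bases before the annotated start, 5′ to 3′ on the gene's strand. Psmb5 lies at chr14:54617996-54618245 on the minus strand and Psmb8 at chr17:34197945-34198194 on the plus strand. Psmb6 lies at chr11:70525107-70525356 on the plus strand and Psmb9 at chr17:34187331-34187580 on the minus strand. Capitals mark matches to the motifs searched, on either strand.
Psmb5: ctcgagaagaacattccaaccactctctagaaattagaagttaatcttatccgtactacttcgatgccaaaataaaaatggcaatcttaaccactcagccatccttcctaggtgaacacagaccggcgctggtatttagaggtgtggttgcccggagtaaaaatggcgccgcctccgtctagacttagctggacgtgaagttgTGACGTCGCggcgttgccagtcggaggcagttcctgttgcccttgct
Psmb8: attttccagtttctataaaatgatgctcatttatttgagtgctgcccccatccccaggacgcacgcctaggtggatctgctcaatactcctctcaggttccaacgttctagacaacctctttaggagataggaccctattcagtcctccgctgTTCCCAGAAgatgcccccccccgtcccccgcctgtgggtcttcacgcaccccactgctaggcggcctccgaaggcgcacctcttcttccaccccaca
Psmb6: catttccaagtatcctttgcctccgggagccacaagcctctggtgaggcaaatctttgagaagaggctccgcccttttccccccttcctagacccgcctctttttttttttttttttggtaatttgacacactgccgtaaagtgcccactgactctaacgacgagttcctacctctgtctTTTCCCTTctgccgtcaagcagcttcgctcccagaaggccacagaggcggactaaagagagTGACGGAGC
Psmb9: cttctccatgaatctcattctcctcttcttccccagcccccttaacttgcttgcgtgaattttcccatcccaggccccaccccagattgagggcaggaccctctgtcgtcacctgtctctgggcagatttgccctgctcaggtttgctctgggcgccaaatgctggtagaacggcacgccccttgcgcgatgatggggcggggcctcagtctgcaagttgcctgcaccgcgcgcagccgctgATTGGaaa
The search covered 4 motifs: the antioxidant response element TGACNNNGC bound by NFE2L1 and NFE2L2, the CCAAT box of NF-Y, the gamma-activated site TTCNNNGAA of STAT factors and the interferon response core AANNGAAA of interferon regulatory factors. In Psmb5 the antioxidant element lies 47 to 39 bases before the start, and in Psmb6 it lies 9 to 1 bases before it, downstream of an interferon core in reverse at 70 to 63 bases. Psmb8 holds a gamma-activated site 97 to 89 bases before its start, and Psmb9 a CCAAT box in reverse 8 to 4 bases before its own. Promoter windows matched 29 of the 36 genes (31 windows). The antioxidant element was found in 5 of the 31 (16.1%), those of Psmb5, Psmb6, Psmc6, Psmd9 and Psmd12, against 10.2% of all 32851 windows. A CCAAT box was found in 12 of 31 (38.7%) against 33.8% of all windows, and the interferon core in 9 of 31 (29%) against 21.3%. No window of the 31 held a gamma-activated site, against 7.02% of all windows and 1 of the 3 immunoproteasome windows. The motif searches are descriptions of letters and were not tied to binding.

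Sequencing depth was alike, with 3.55 and 3.29 gigabases aligned in mCherry Pos and 3.13 and 3.75 in mCherry Neg (Exp1 and Exp2). Levels below are FPKM, fragments per kilobase of transcript scaled to library size, and differences are mCherry Pos minus mCherry Neg on the log2(FPKM + 1) scale, ± SE. They came in 2 measures. The summed FPKM adds all transcripts of a gene. The length-weighted FPKM adds the same transcripts in proportion to their length, so that a short assembled fragment weighs less than a long form. It includes assembled forms on the other strand of a gene's exons. The sum is divided by a single length per gene, the mean over all libraries weighted by FPKM. Libraries with and without a short form are thus evened out, but the mean level of a gene is not corrected for such forms. This measure was added after short forms were seen to raise the sum in some libraries and not in others.

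Constitutive proteasome genes were expressed strongly and almost evenly across the 4 libraries. With limma on the summed FPKM and Benjamini-Hochberg adjustment over 11831 genes, 0 of the 34 subunit genes tested passed an adjusted p of 0.05, against 5.49% of all genes (649, of which 322 were higher and 327 lower in mCherry Pos). At an unadjusted p under 0.05 there were 2, Psma4 and Psma5. Both passed once the experiment entered as a replicate block (1338 genes or 11.3% of all then passed, 6.96% in the lower direction), with adjusted p values of 0.0493 for Psma4 and 0.0299 for Psma5. On the length-weighted FPKM 0 of 34 passed without the block (lowest adjusted p 0.247; background 6.93%) and 0 with it (lowest 0.120; background 20.4%). At an unadjusted p under 0.05 there were 0 genes without the block and 2 with it, Psmb5 and Psmd7. The length-weighted differences ran between -0.32 for Psmd10 and 0.26 for Psmd7, and no 95% interval of a subunit gene reached further than 0.73 from 0. Of these genes 0 of 34 lay more than 0.5 from 0 on this measure, whereas 28.8% of all 11853 genes tested did.

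**Figure D1:**
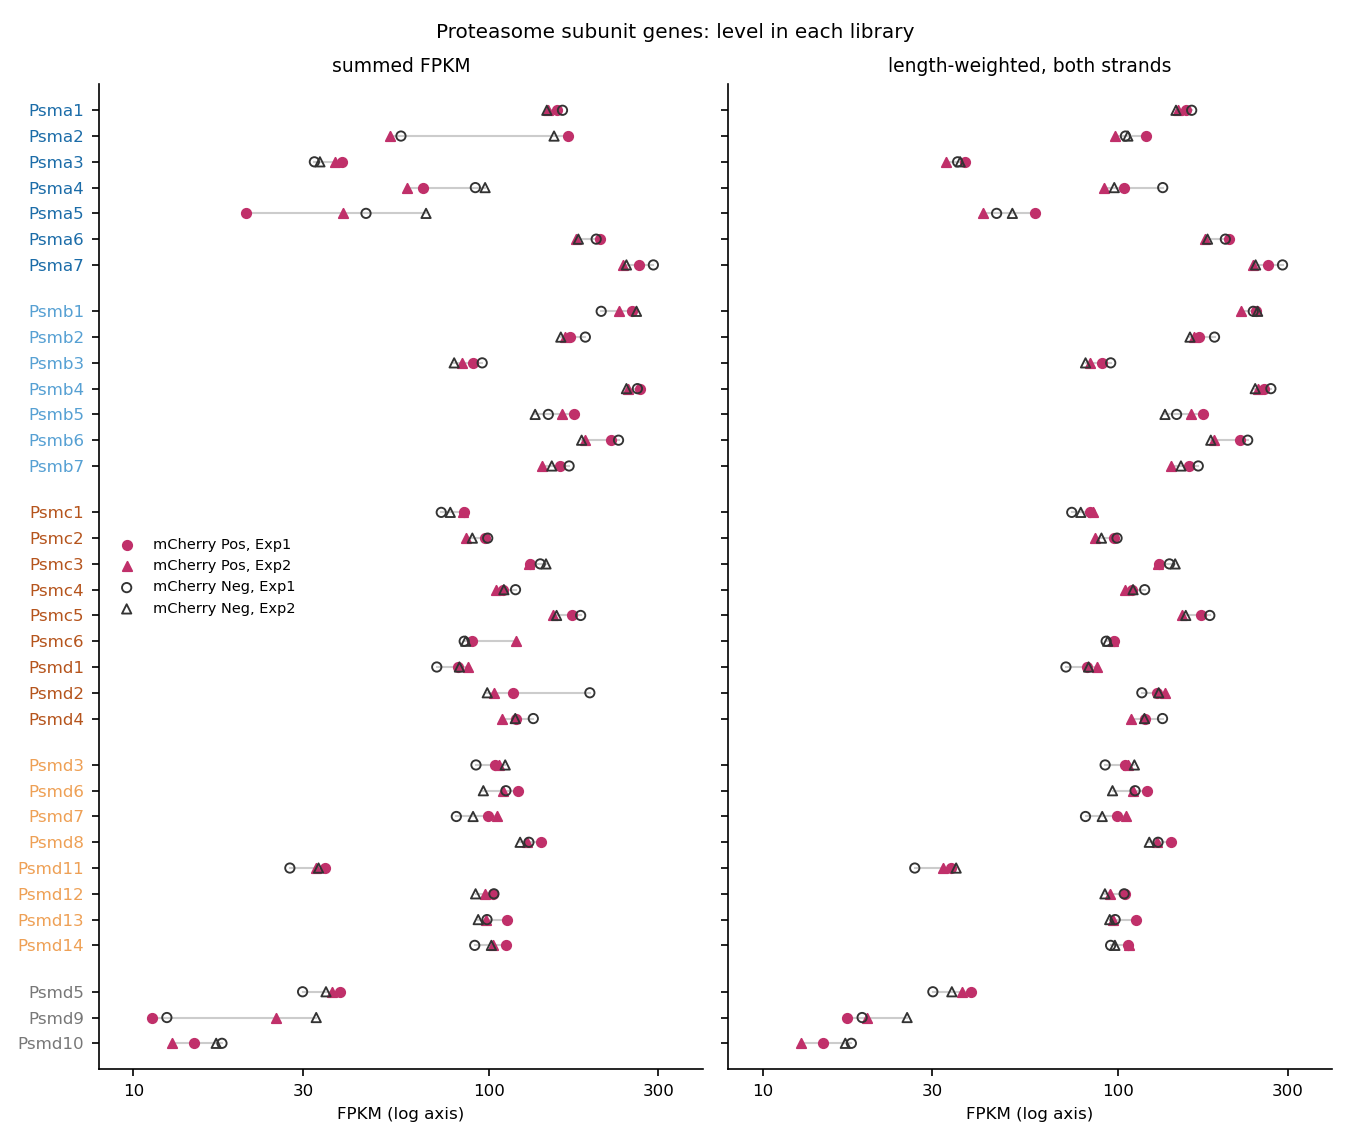
FPKM of the 34 tested subunit genes (rows, coloured by role) in the mCherry Pos (filled) and mCherry Neg (open) libraries of Exp1 (circles) and Exp2 (triangles), on a log axis, as summed FPKM (left) and length-weighted FPKM (right). The 4 symbols of a gene lie close together on the right, where the ratio of highest to lowest library is at most 1.48, while Psma2, Psma4, Psma5, Psmd2 and Psmd9 spread by more than 1.5 times on the left.

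Levels differed far more between subunits than between fractions. Mean length-weighted FPKM over the 4 libraries ranged from 15.6 for Psmd10 to 260 for Psma7, a ratio of 16.6. Psma7, Psmb4, Psmb1 and Psmb6, all core subunits, exceeded 200 FPKM, at 260, 255, 238 and 205. Psma5, Psma3, Psmd5, Psmd11, Psmd9 and Psmd10 were below 50 FPKM, at 49.0, 35.3, 34.8, 32.0, 20.4 and 15.6. The median level was 154 FPKM over the 14 tested core genes and 99.7 FPKM over the 20 regulatory genes, against 11.2 FPKM over all genes tested. The order of the 34 genes was kept between libraries, with Spearman's rho between 0.92 and 0.98 over the 6 pairs of libraries, across genes that are not independent replicates. The median gene had a highest library 1.19 times its lowest one, and 19 of 34 genes stayed under 1.2 times. In all, the 34 genes made up 0.631% and 0.628% of the FPKM of all genes in mCherry Pos (Exp1 and Exp2), against 0.616% and 0.641% in mCherry Neg. That total covers named genes only and leaves out transcripts under 200 bases, which carried 95.1% to 98.9% of the listed FPKM.

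Among the alpha subunits, which form the gated outer rings, Psma1, Psma6 and Psma7 had differences between -0.08 and 0.01 on either measure. Psma7 had 265 and 239 FPKM in mCherry Pos and 290 and 244 FPKM in mCherry Neg, overlapping groups. Psma1, part of whose value rests on a retired Ensembl transcript placed by its exons, had 156 and 147 FPKM in mCherry Pos and 161 and 146 FPKM in mCherry Neg. Psma3 had 38.7 and 36.8 FPKM in mCherry Pos and 32.3 and 33.5 FPKM in mCherry Neg when summed (0.19 ± 0.13, adjusted p = 0.407 by limma). The groups did not overlap in that measure, but did when weighted by length, at 37.2 and 32.8 FPKM in mCherry Pos and 35.4 and 36.0 FPKM in mCherry Neg. Psma2 was split by its measure: its summed FPKM was 167 and 52.7 in mCherry Pos and 56.6 and 153 in mCherry Neg, and an assembled form of 835 or 832 bases was listed in the Exp1 Pos and the Exp2 Neg library only. Weighted by length, Psma2 had 120 and 97.8 FPKM in mCherry Pos and 105 and 107 FPKM in mCherry Neg.

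Psma4 and Psma5 were the alpha genes with the lowest summed differences. Psma4 (ENSMUSG00000032301, chr9:54798597-54805837 on the plus strand in mm9) had 65.2 and 58.9 summed FPKM in mCherry Pos and 91.6 and 97.6 in mCherry Neg, and both Pos libraries were below both Neg libraries (-0.60 ± 0.14, adjusted p = 0.0768 by limma, 0.0493 with the block). On its last exon, 3 libraries also listed an assembled form of 413 to 422 bases on the minus strand. This form had 107 and 91.2 FPKM in the Pos libraries and 118 FPKM in the Exp1 Neg library, and it was not listed in the Exp2 Neg library. With it added, Psma4 had 104 and 91.2 length-weighted FPKM in mCherry Pos and 134 and 97.6 in mCherry Neg (-0.23 ± 0.19, adjusted p = 0.480, or 0.192 with the block). The groups then overlapped. In both Exp1 libraries, however, the listed FPKM of this form lay above its own deposited interval, whose upper bound was 72.2 in Pos and 80.8 in Neg. The overlap rests on those listed values. Values above their deposited interval were also listed, in single libraries, for forms of Psma2, Psmb1, Psmc1 and Psmd3 and of the immunoproteasome genes Psmb8 and Psmb10. The labels do not say whether reads kept their strand, so reads of the 2 strands cannot be told apart here.

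Psma5 (ENSMUSG00000068749, chr3:108059844-108082892 on the plus strand) had 20.7 and 39.0 summed FPKM in mCherry Pos and 45.1 and 66.6 in mCherry Neg (-0.92 ± 0.36, adjusted p = 0.192 by limma, 0.0299 with the block). Its full-length annotated form alone stood at 20.7 and 20.4 FPKM in mCherry Pos and 17.4 and 20.7 FPKM in mCherry Neg, values that overlapped. The rest of the sum came from assembled forms. In Exp2 these were 346 bases (Pos) and 277 bases (Neg) long and lay at the gene's end. The Exp1 Neg library listed a form of 473 exonic bases from 108071703 to 108082892. The Exp1 Pos library held none of these and instead listed a form of 243 bases on the other strand at 77.6 FPKM. Length-weighted, Psma5 had 58.5 and 41.7 FPKM in mCherry Pos and 45.5 and 50.4 FPKM in mCherry Neg (0.04 ± 0.19, adjusted p = 0.908). The sign of the difference was thus opposite in Exp1 (0.35) and Exp2 (-0.27). Psma8, an alpha subunit of the testis, did not pass the filter on low values and had 0.07 and 0.04 FPKM in mCherry Pos and 0.04 and 0.11 FPKM in mCherry Neg.

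Of the 7 beta subunit genes tested, 1 had groups that did not overlap, Psmb5, which holds the chymotrypsin-like site. Both of its Pos libraries were above both Neg libraries, a pattern found for 15.3% of all genes by summed and 15.1% by length-weighted FPKM. Psmb5 (ENSMUSG00000022193, chr14:55232957-55236832 on the minus strand in mm9) had 173 and 160 summed FPKM in mCherry Pos and 147 and 135 in mCherry Neg (0.24 ± 0.14, adjusted p = 0.330 by limma). Its difference was 0.25 in Exp1 and 0.24 in Exp2 on the length-weighted FPKM (0.24 ± 0.13, 95% interval -0.08 to 0.56, adjusted p = 0.278), and it did not pass. Psmb6, with the caspase-like site, had 220 and 186 FPKM in mCherry Pos and 232 and 182 FPKM in mCherry Neg (-0.02 ± 0.19). Psmb7, with the trypsin-like site, had 159 and 141 FPKM in mCherry Pos and 168 and 150 FPKM in mCherry Neg (-0.09 ± 0.15, adjusted p = 0.747 by limma). For these last genes the experiments differed by as much as the fractions, and the groups overlapped. Of the noncatalytic subunits Psmb1, Psmb2, Psmb3 and Psmb4, the length-weighted differences lay between -0.07 and -0.02. Psmb1 had 253 and 233 summed FPKM in mCherry Pos and 207 and 260 FPKM in mCherry Neg (0.06 ± 0.17), and 244 and 222 against 240 and 247 FPKM when weighted by length. The listed 207 FPKM of Psmb1 lay above its deposited interval, whose upper bound was 182. Psmb11, the beta subunit of the thymus, was listed at 0 in the Exp1 Pos and the Exp2 Neg library and at 0.009 and 0.0004 FPKM in the Exp2 Pos and the Exp1 Neg library, and was not tested.

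The genes that replace the catalytic subunits had other values. Psmb8, which takes the place of Psmb5, had 3.90 and 7.94 FPKM in mCherry Pos and 17.7 and 30.7 FPKM in mCherry Neg (-1.88 ± 0.40, adjusted p = 0.0681 by limma, 0.0106 with the block). All of its value came from an assembled form of 1089 bases. In the Exp2 Neg library the listed value of Psmb8 lay above its deposited interval, whose upper bound was 29.3. Psmb9, which takes the place of Psmb6, was listed at 0 in both Pos libraries and had 9.09 and 14.0 FPKM in mCherry Neg (adjusted p = 0.00956 by limma). This call rests on the listed zeros, and the fits without genes listed at 0 leave Psmb9 out. Whether a listed 0 means absent RNA was not tested. Psmb10, which takes the place of Psmb7, had 32.3 and 20.1 summed FPKM in mCherry Pos and 44.2 and 23.9 in mCherry Neg (adjusted p = 0.605), and 26.5 and 20.9 against 40.2 and 33.0 FPKM when weighted by length (-0.61 ± 0.18, adjusted p = 0.111 by limma, 0.0203 with the block). Both Pos libraries were below both Neg libraries for all 3 genes on the length-weighted FPKM, a pattern found for 44.4% of all genes tested. Of all genes, 11.3% passed with the block by summed FPKM and 20.4% by length-weighted FPKM. Level for level, Psmb5 exceeded Psmb8 in each library, and Psmb6 exceeded Psmb9.

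**Figure D2:**
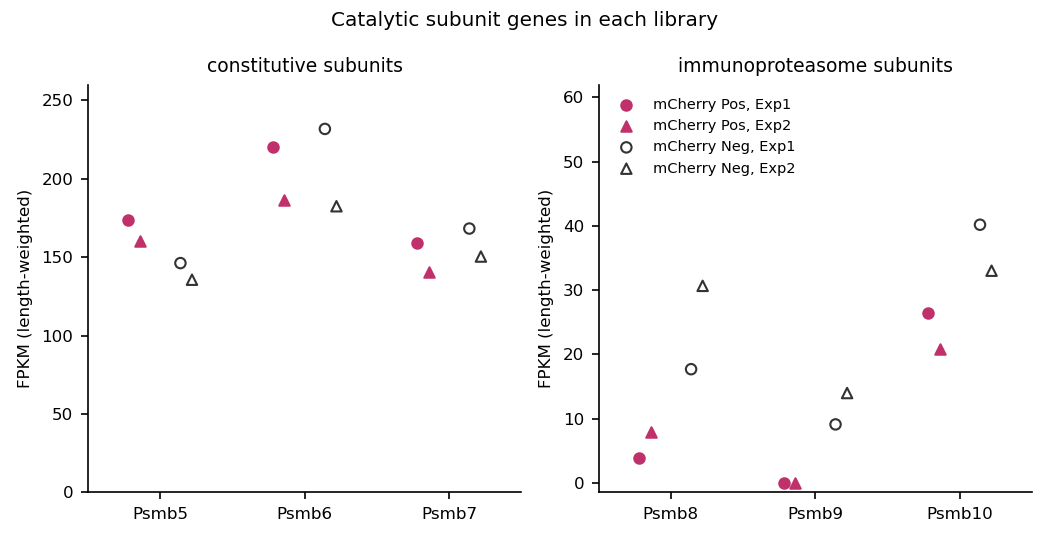
Length-weighted FPKM of the constitutive catalytic genes Psmb5, Psmb6 and Psmb7 (left) and of their immunoproteasome counterparts Psmb8, Psmb9 and Psmb10 (right) in the mCherry Pos (filled) and mCherry Neg (open) libraries; the vertical axes differ in range. The Pos symbols lie above the Neg symbols for Psmb5, mix with them for Psmb6 and Psmb7, and lie below them for the 3 genes on the right.

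In the base of the regulatory particle, the ATPase genes and the scaffolds Psmd1 and Psmd2 stayed within 0.15 of equality on the length-weighted FPKM. The ATPase gene Psmc1 had 85.4 and 84.6 summed FPKM in mCherry Pos and 73.5 and 77.9 in mCherry Neg (0.17 ± 0.13, adjusted p = 0.461 by limma), and the Pos libraries were above the Neg ones. For Psmc3 and Psmc4 both Pos libraries were below both Neg libraries, narrowly so for Psmc4. Psmc3 had 130 and 130 FPKM in mCherry Pos and 140 and 145 FPKM in mCherry Neg (-0.13 ± 0.13). Psmc4 had 110 and 105 FPKM in mCherry Pos and 119 and 110 FPKM in mCherry Neg (-0.09 ± 0.13). Psmc6 had the highest summed difference of the regulatory genes (0.27 ± 0.18, adjusted p = 0.404 by limma), with 89.4 and 119 FPKM in mCherry Pos and 85.2 and 86.1 FPKM in mCherry Neg. Weighted by length, Psmc6 had 97.2 and 96.6 FPKM in mCherry Pos and 92.6 and 93.5 FPKM in mCherry Neg (0.06 ± 0.11). Psmd2 had the lowest (-0.33 ± 0.33), with 117 and 103 summed FPKM in mCherry Pos and 192 and 99.0 in mCherry Neg. In the Exp1 Neg library 102 of those 192 FPKM belonged to an assembled form of 440 bases, and length-weighted values were 129 and 136 FPKM in mCherry Pos and 117 and 130 FPKM in mCherry Neg. The value of Psmc5, another ATPase, rests on retired Ensembl transcripts placed by their exons, at 171 and 151 FPKM in mCherry Pos and 181 and 155 FPKM in mCherry Neg. Psmd4, a receptor for ubiquitin chains, had 119 and 109 FPKM in mCherry Pos and 133 and 119 FPKM in mCherry Neg (-0.14 ± 0.14).

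None of the lid genes passed. All 8 of their differences were above 0, from 0.04 to 0.26 summed and from 0.03 to 0.26 length-weighted, with medians of 0.14 and 0.11. Under the other settings tried, which refit the same libraries, 7 or 8 of the 8 were above 0. Each time all 8 were above the median of all genes. That was not particular to the lid, since 29 of all 34 subunit genes lay above this median by summed and 31 by length-weighted FPKM. Of all genes tested, 3666 of 11831 were above 0 by summed FPKM and 3494 of 11853 by length-weighted FPKM. Psmd7, a lid subunit that pairs with the deubiquitinase, had 99.4 and 106 FPKM in mCherry Pos and 81.0 and 90.3 FPKM in mCherry Neg. Both Pos libraries were above both Neg libraries, in the same way in Exp1 (0.29) and Exp2 (0.22), at a difference of 0.26 ± 0.14 (adjusted p = 0.303 by limma). Psmd14, the deubiquitinase that removes ubiquitin from substrates, had 112 and 103 summed FPKM in mCherry Pos and 91.3 and 102 in mCherry Neg (0.15 ± 0.14, adjusted p = 0.538 by limma). Its Pos libraries were above its Neg libraries on both measures. The remaining lid genes Psmd3, Psmd6, Psmd8, Psmd11, Psmd12 and Psmd13 had overlapping groups. Psmd11 was the low one among them, at 34.6 and 32.6 FPKM in mCherry Pos and 27.6 and 33.2 FPKM in mCherry Neg.

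Assembly chaperones of the base were low and differed in sign. Psmd5 had 38.2 and 36.1 summed FPKM in mCherry Pos and 29.9 and 34.8 in mCherry Neg (0.20 ± 0.15, adjusted p = 0.453 by limma), with both Pos libraries above. Psmd10, also known as the oncoprotein gankyrin, had 14.8 and 12.8 FPKM in mCherry Pos and 17.7 and 17.1 FPKM in mCherry Neg, with both Pos libraries below (-0.32 ± 0.16, adjusted p = 0.281 by limma). Psmd9 had 11.3 and 25.2 summed FPKM in mCherry Pos and 12.4 and 32.7 in mCherry Neg, and an assembled form of 796 or 819 bases was listed in Exp2 only. Length-weighted, Psmd9 had 17.3 and 19.7 FPKM in mCherry Pos and 19.1 and 25.5 FPKM in mCherry Neg (-0.24 ± 0.19, adjusted p = 0.449 by limma). Neither Psmd9 nor Psmd10 passed. Over the 34 genes, both Pos libraries were above both Neg libraries for 7 by summed FPKM and 6 by length-weighted FPKM, where all genes tested gave 15.3% and 15.1%. Both were below for 5 and 3, where all genes gave 42.8% and 44.4%.

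**Figure D3:**
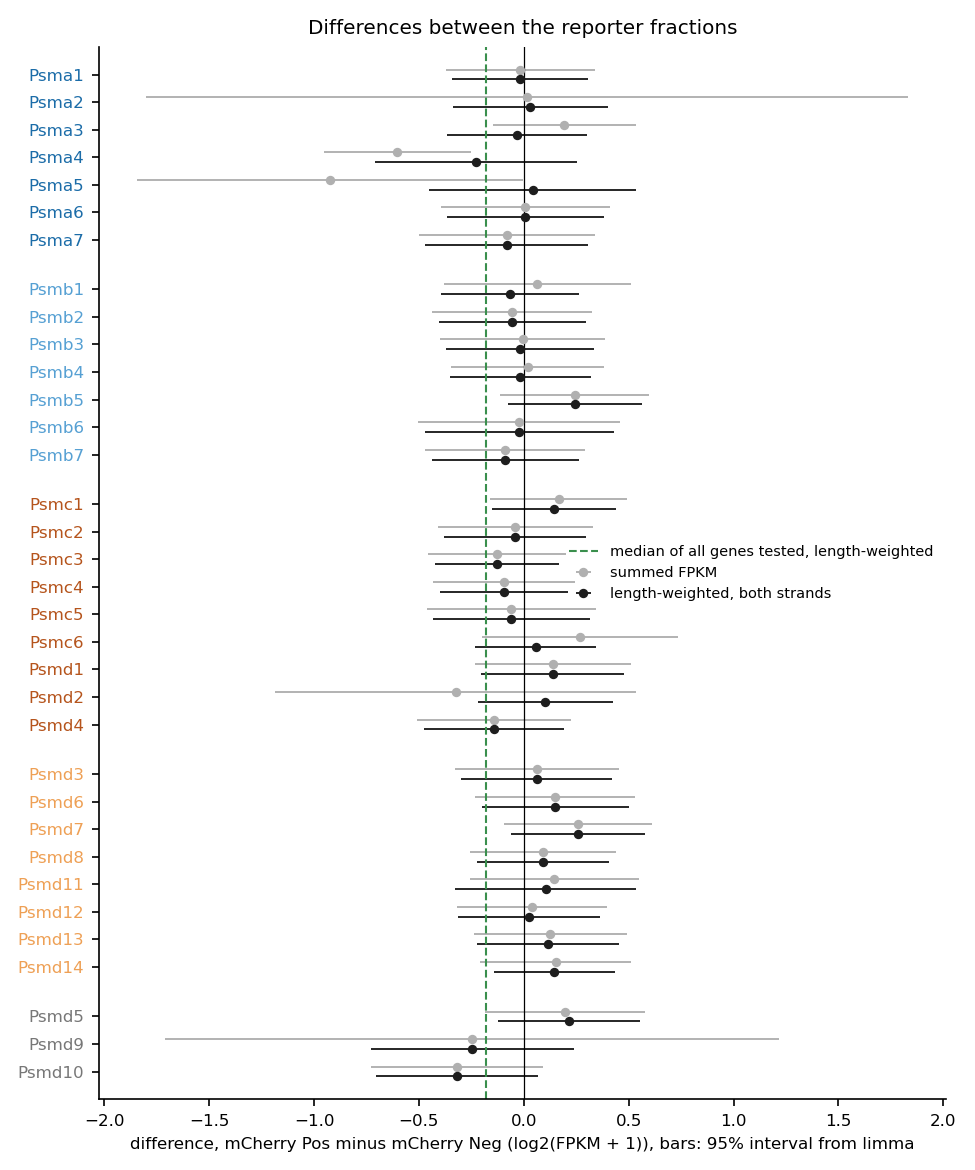
Difference between mCherry Pos and mCherry Neg in log2(FPKM + 1) for each tested subunit gene (points) with its 95% interval from limma (bars), by summed FPKM (grey) and length-weighted FPKM (black); the dashed line is the median of all genes tested, -0.18. Length-weighted points lie between -0.32 and 0.26, and each of their intervals crosses 0.

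Core and regulatory genes were set against each other by their medians, which carry no test because subunit genes are not replicates. The median difference was -0.01 over the 14 core genes and 0.08 over the 20 regulatory genes by summed FPKM, and -0.02 and 0.08 when weighted by length. Both were above the median of all genes tested, -0.18, by 0.17 for the core and 0.26 for the regulatory genes. Of the 34 genes, 29 by summed and 31 by length-weighted FPKM lay above that median of all genes, and 23 to 31 did under the other settings that tested 34. The all-gene median itself depended on scaling. With median-of-ratios scaling it was 0.03, the core median 0.226 and the regulatory median 0.315. The distances from all genes were then 0.195 and 0.284. Quantile-normalized values gave an all-gene median of -0.0298 and shorter distances, 0.0723 for the core and 0.173 for the regulatory genes. In that fit 26 of 34 genes lay above the all-gene median. The core median had another sign than as deposited under either rescaling (0.0425 when quantile-normalized), and so did single genes near 0. After median-of-ratios scaling 29 of 34 were above 0, and 22 when quantile-normalized, against 18 as deposited. In bulk libraries of sorted cells, fewer cells of a type and less RNA per cell cannot be told apart.

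**Figure D4:**
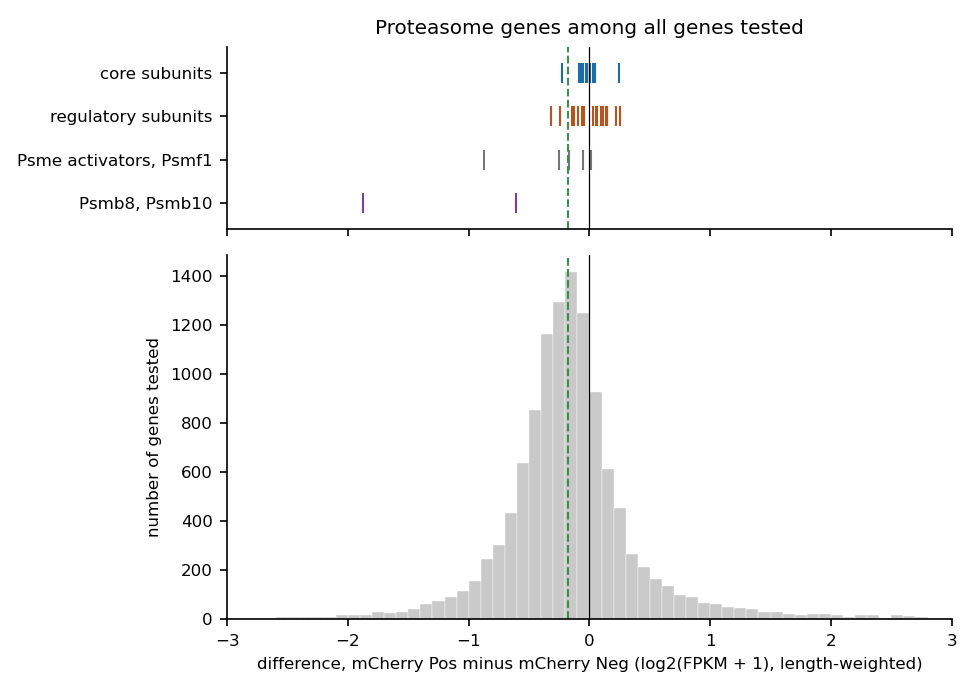
Number of genes tested (lower panel, bins of 0.1) by length-weighted difference between mCherry Pos and mCherry Neg, with the core, regulatory, activator and immunoproteasome genes as ticks above; dashed line, median of all genes; Psmb9 is left out because it is listed at 0 in mCherry Pos, and 31 and 33 genes lie below and above the axis. Of the core and regulatory ticks 31 of 34 lie to the right of the dashed line, while Psmb8, Psmb10 and Psme2 lie to its left.

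Exp1 and Exp2 share no library, and signs were counted in each without a test. On length-weighted FPKM 6 of 14 core genes were higher in the Pos library in Exp1 and 6 in Exp2, but Psmb5 alone of the 14 was higher in both, 3 were lower in both and 10 changed sign. Of the 20 regulatory genes, 13 were higher in Exp1 and 11 in Exp2, with 11 higher in both, 7 lower in both and 2 of changing sign. In the lid 6 of 8 were higher in both, whereas the base was divided, with 4 higher and 5 lower in both. Across all 11853 genes, 2424 were higher in both, 6722 lower in both and 2659 changed sign. Medians in Exp1 and Exp2 were -0.06 and -0.02 for the core, 0.11 and 0.04 for the regulatory genes, and -0.13 and -0.25 for all genes. The length-weighted FPKM added over the core genes, divided by that over the regulatory genes, was 1.18 in the Pos library and 1.26 in the Neg library of Exp1, and 1.11 and 1.13 in those of Exp2. By summed FPKM the ratio was 1.19 in the Pos library and 1.15 in the Neg library of Exp1, and 1.07 and 1.19 in those of Exp2. Its direction in Exp1 thus depended on the measure, and the groups overlapped on both.

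**Figure D5:**
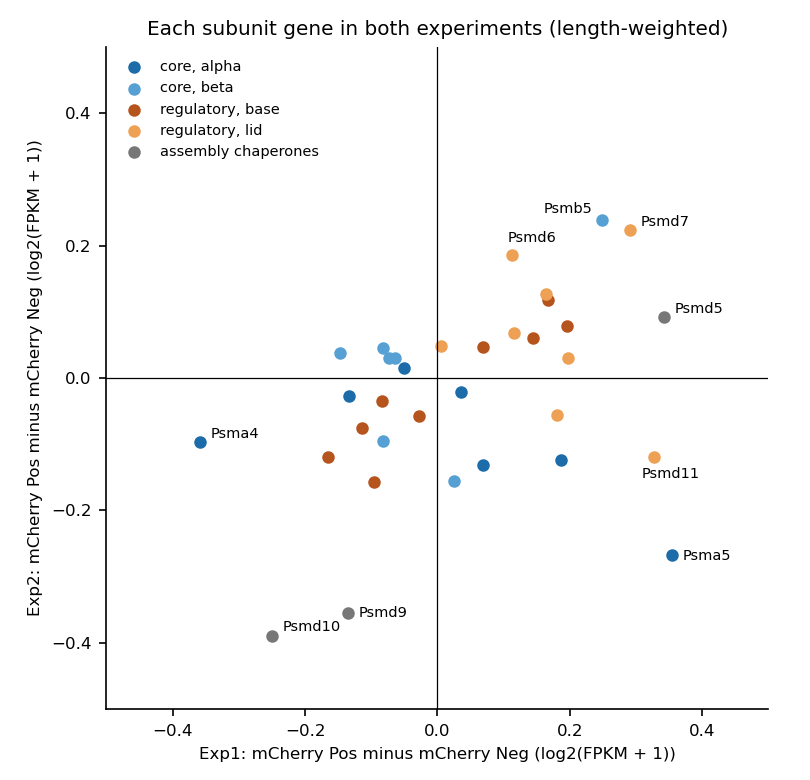
Length-weighted difference of each tested subunit gene in Exp1 (horizontal) and Exp2 (vertical), mCherry Pos minus mCherry Neg in log2(FPKM + 1), coloured by role. Psmb5 and Psmd7 lie in the upper right and Psmd10 and Psmd9 in the lower left, whereas Psma5 and Psmd11 have opposite signs in the experiments.

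Genes that serve the constitutive particle were read beside it. Of the 5 core assembly chaperones 0 passed, with Psmg2 at 26.2 and 26.0 FPKM in mCherry Pos and 38.9 and 40.5 FPKM in mCherry Neg (-0.59 ± 0.13, adjusted p = 0.0763 by limma). Length-weighted with the block, Psmg2 and Psmg4 passed as lower in mCherry Pos (adjusted p = 0.0195 and 0.0314), in a fit where 20.4% of all genes passed. Psmg4 had 42.5 and 25.1 FPKM in mCherry Pos and 56.4 and 44.9 FPKM in mCherry Neg (adjusted p = 0.258). Pomp, which guides beta ring closure, had 225 and 200 FPKM in mCherry Pos and 239 and 191 FPKM in mCherry Neg (-0.01 ± 0.18). Of the 4 activators and the inhibitor Psmf1, 1 of 5 passed, against 5.49% of all genes. This was Psme2, an activator subunit raised by interferon-gamma. It fell in mCherry Pos, with 13.7 and 11.1 FPKM there and 24.7 and 27.2 FPKM in mCherry Neg (-1.01 ± 0.17, adjusted p = 0.0459 by limma). Weighted by length it did not pass without the block (-0.87, adjusted p = 0.0507) and did with it (0.0196). Its partner Psme1 had 66.3 and 60.2 FPKM in mCherry Pos and 80.8 and 70.3 FPKM in mCherry Neg (adjusted p = 0.341).

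Regulators and clients of the pathway gave few calls. Of 12 genes that control subunit transcription 0 passed by summed FPKM. Nfe2l1 had 32.0 and 32.1 FPKM in mCherry Pos and 30.6 and 38.2 FPKM in mCherry Neg (-0.09 ± 0.16, adjusted p = 0.767 by limma). Nfe2l2, which binds the same element and controls antioxidant genes, had 174 and 146 FPKM in mCherry Pos and 127 and 127 FPKM in mCherry Neg, groups that did not overlap (0.33 ± 0.15, adjusted p = 0.248 by limma). Maff, a small partner of both, had 8.32 and 10.9 FPKM in mCherry Pos and 4.84 and 5.13 FPKM in mCherry Neg (0.81 ± 0.20, adjusted p = 0.0913; length-weighted 0.0827, or 0.0318 with the block). Nfyb, a subunit of NF-Y, had 9.84 and 10.5 FPKM in mCherry Pos and 15.4 and 20.5 FPKM in mCherry Neg (-0.75 ± 0.20, adjusted p = 0.102; length-weighted 0.0837, or 0.0240 with the block). In the length-weighted fit with the block 20.4% of all genes passed.

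Of 12 factors bound to the proteasome 0 passed. For the calls with the block below, the share over all genes was 11.3% by summed and 20.4% by length-weighted FPKM. The deubiquitinase Uchl5 had 48.0 and 43.5 FPKM in mCherry Pos and 59.1 and 53.3 FPKM in mCherry Neg (-0.29, adjusted p = 0.268 by limma). Among 9 genes of ubiquitin supply and unfolding 0 passed, and 1 did with the block: the ubiquitin-activating enzyme Uba1, at 220 and 206 summed FPKM in mCherry Pos and 99.8 and 139 in mCherry Neg (0.85 ± 0.20, adjusted p = 0.0825 by limma, 0.0475 with the block). Length-weighted, Uba1 had 177 and 184 FPKM in mCherry Pos and 133 and 170 FPKM in mCherry Neg (adjusted p = 0.345). The polyubiquitin gene Ubb had 495 and 411 FPKM in mCherry Pos and 553 and 538 FPKM in mCherry Neg (adjusted p = 0.367; length-weighted 0.244, or 0.0443 with the block). Of 10 heat shock and aggregate genes 0 passed, and the chaperone gene Hspb1 did with the block, at 278 and 261 FPKM in mCherry Pos and 201 and 148 FPKM in mCherry Neg (0.64 ± 0.19, adjusted p = 0.127, 0.0493 with the block). Hsph1 had 10.2 and 11.5 FPKM in mCherry Pos and 14.2 and 18.9 FPKM in mCherry Neg (adjusted p = 0.173).

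Markers of the sorted cells and of other cells were read as a check of the labels. The 10 keratinocyte genes were present and summed to 4119 and 4313 FPKM in mCherry Pos and 3469 and 3679 FPKM in mCherry Neg. Against the direction of that sum, the median difference of these 10 genes was -0.525 by summed and -0.526 by length-weighted FPKM. Of these, 1 passed by summed FPKM: the hemidesmosome collagen Col17a1 fell, with 259 and 250 FPKM in mCherry Pos and 723 and 775 FPKM in mCherry Neg (-1.55 ± 0.15, adjusted p = 0.0157 by limma). On length-weighted FPKM Itga6, the integrin gene of the sort, passed too (-0.93, adjusted p = 0.0481). Without the block 5.49% of all genes passed by summed FPKM and 6.93% by length-weighted FPKM. The block let 11.3% and 20.4% pass. With the block, 5 keratinocyte genes were lower in mCherry Pos on either measure, Col17a1, Itga6, Itgb4, Epcam and Trp63. Higher with the block were 1 by summed FPKM (Sfn) and 2 by length-weighted FPKM (Sfn and Dsp). Of 7 proliferation genes 2 fell by summed FPKM, Mki67 (-0.80, adjusted p = 0.0476) and Pcna (-0.95, adjusted p = 0.0333). On length-weighted FPKM their adjusted p values were 0.0564 and 0.0571, and Mcm2 passed instead (-0.99, adjusted p = 0.0470). With the block 3 proliferation genes passed by summed FPKM and 5 by length-weighted FPKM, all of them lower in mCherry Pos. The 8 leukocyte markers summed to 15.9 and 32.1 FPKM in mCherry Pos and 31.9 and 49.4 FPKM in mCherry Neg, most of it Cd74, with the defining Ptprc and Cd3e under 0.4 FPKM in each library. The 5 endothelial markers summed to 10.4 and 8.93 FPKM in mCherry Pos and 8.50 and 13.3 FPKM in mCherry Neg. The 7 fibroblast markers summed to 12.8 and 27.7 FPKM in mCherry Pos and 27.2 and 41.6 FPKM in mCherry Neg. Of these 20 markers of other cells, Csf1r was listed at 0 in 3 libraries, 10 were tested and 0 passed without the block on either measure. With the block 2 were lower in mCherry Pos by summed FPKM, Cd74 and Col1a2, and 4 by length-weighted FPKM, Cd74, Col1a1, Col1a2 and Col3a1. Cd74 went against the other leukocyte markers tested: the median difference of the 3 was 0.34 by summed and 0.33 by length-weighted FPKM. The median was -0.76 and -0.74 for the 5 fibroblast markers tested, and 0.03 and -0.33 for the 2 endothelial ones. The part of other cells in the values of Psmb8, Psmb9, Psmb10 and Psme2 was not tested.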

How the data were processed

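Libraries were made from messenger RNA with an Illumina kit, per the labels' protocols, and grouped by reporter state in their titles. The submitters' processing notes name TopHat, Cufflinks and build mm9, with versions not stated in what was used here. The deposited files list an FPKM for every Ensembl and assembled transcript, per the file headers, and a coverage, from whose ratio to FPKM the aligned bases were computed. Transcripts under 200 exonic bases, which carried 95.1% to 98.9% of the FPKM, were left out. Ensembl identifiers were named with GENCODE M21, and assembled or retired transcripts went to the gene on their strand that covered at least 50% of their exonic bases. Coordinates are those of mm9.

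A gene entered the test if 2 or more libraries held 1 FPKM or more. The test was that of limma 3.58.1, run in R 4.3.3 (lmFit, eBayes with a trend) on log2(FPKM + 1), two-sided, with Benjamini-Hochberg adjustment over all genes and a threshold of 0.05; gene tables were built with Python 3.11.15 and pandas 2.3.3. A fold change on this scale understates that of low genes. The script was tested on simulated data. The number of reads behind a value is unknown. The titles number the experiments, which pairs the libraries (correlation of deviations 0.189 across genes), so a fit with experiment as a block is given where it changes a call. The labels name no animals, so the p-values reflect no more than the spread among these libraries, which may be technical. Every subunit gene is accounted for, with library values for those named by role, by the largest and smallest differences and by listing at 0; of other lists, genes that passed or the 2 with the smallest p are named, besides some fixed genes; 1 gene that this rule names is not reported here. The subunit genes, lists and rules were chosen with earlier results of these data known.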

Additional observations from a re-analysis of the deposited data

Results flagged for a closer look

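In the mCherry Pos library of Exp1, an assembled form of 243 bases on the strand opposite to Psma5 was listed at 77.6 FPKM, outside the summed FPKM of the gene. No mCherry Neg library listed such a form there, and neither did the other mCherry Pos library.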

How the results depend on the processing

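The counts of regulatory genes that passed stayed at 0 under all 20 alternatives. The count of core genes was 0 except for 2 with the replicate block, with or without genes listed at 0, and 1 (Psma4) with the length-weighted sum on the gene's strand and the block. All genes passing numbered 649, against 70 without a filter on low levels, 1338 with the replicate block, 1254 without genes listed at 0, 3176 with both of these, 95 with reference transcripts only, 327 with the most abundant transcript, 983 with robust variance, and 1989 and 2422 with the block on length-weighted sums of 1 strand and of both. Leaving out 1 library gave 43 (without mCherry Neg of Exp2) to 224 (without mCherry Neg of Exp1), with 86 and 46 without mCherry Pos of Exp1 and of Exp2; the lone library of a fraction was then taken to vary like the other fraction. Calls divided into 484 higher and 218 lower with median-of-ratios scaling and 426 and 261 with quantile normalization, against 322 and 327 as deposited.

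The core median was 0.226 with median-of-ratios scaling, 0.0425 with quantile normalization and 0.214 with the length-weighted sum so scaled, and -0.113 to 0.0617 with 1 library left out. The regulatory median was 0.315, 0.143 and 0.319 under the same settings and 0.0536 to 0.071 with 1 library left out. Core minus regulatory was -0.0887 and ran from -0.181 (without mCherry Neg of Exp2) to -0.00664 (without mCherry Neg of Exp1). Of 680 values of single subunit genes, 571 were counted as unmoved, 104 moved and 5 passed. Genes counted as unmoved could still shift, as Psmd2 (SE 0.333) did from -0.325 to -0.0869 with median-of-ratios scaling. Of the 680, 84 changed sign with neither value passing. The block changed no other call among subunit genes. The length-weighted sums were added after seeing the data. With 2 libraries per fraction, 95% intervals of a subunit gene on length-weighted FPKM without the block reached a median of 0.339 to each side, which limits what these data can show of smaller differences. The causes of these changes were not tested.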
